A study of Mus musculus with 4 samples.

Results

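The olfactory cAMP cascade turns the binding of an odorant into an electrical signal in the cilia of olfactory sensory neurons (OSNs). Its 10 genes described here are *Gnal*, *Gng13*, *Ric8b*, *Adcy3*, *Cnga2*, *Cnga4*, *Cngb1*, *Ano2*, *Slc24a4*, and *Pde1c*. They were chosen by name for their role in the pathway, and all 10 were among the 24421 genes with deposited values. In both transgenic lines studied, each of the 10 genes had a lower value in the reporter-positive cells than in the reporter-negative cells, as did 75.5% of all genes compared in the GFP line and 60.0% in the tdTomato line. The 10 genes together were 7.90-fold lower in GFP-positive cells and 1.95-fold lower in tdTomato-positive cells, or 4.28-fold and 1.75-fold lower after the libraries were scaled by the median ratio over genes.

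An odorant receptor, or a trace amine-associated receptor (TAAR), activates the olfactory G protein, whose alpha subunit stimulates adenylyl cyclase 3. The cAMP that is made opens a cyclic nucleotide-gated (CNG) cation channel, calcium enters the cilium, and calcium-activated chloride channels add to the depolarization. Calcium extrusion, phosphodiesterases, and feedback through calmodulin end the response.

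The study asked whether 2 enhancers of the *Taar* gene cluster are active in TAAR OSNs. Each enhancer was placed before the Hsp68 minimal promoter and a fluorescent reporter in a PiggyBac transgene, GFP for TAAR enhancer 1 and tdTomato for TAAR enhancer 2, and each line came from 1 founder. The labels give the strain as C57BL/6, whereas the study's methods name C57BL/6J eggs and its reporting summary names mixed C57BL/6J and 129 backgrounds for the study's lines. Cells of the main olfactory epithelium (MOE) were dissociated with papain and sorted by the reporter, and RNA-seq was performed on GFP-positive, GFP-negative, tdTomato-positive, and tdTomato-negative cells, with 1 library per group. The mice of both groups of a line carried its transgene, so a reporter-negative library is the rest of the same epithelium and not a separate genotype. The labels call the mice adult, whereas the study's reporting summary lists young postnatal mice of both sexes, with a wider age range for the tdTomato line.

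Values are TPM, a transcript abundance scaled by transcript length and to a total of 1000000 in each library, so levels of different genes can be compared within a library. Read depth is unknown. Differences are given on the log2(TPM + 1) scale as reporter-positive minus reporter-negative, which understates the change of genes at low levels, and folds are ratios of TPM. With 1 library per group no difference has a replicate check, and no p-value was calculated. For background, the same measure is given over all genes with at least 1 TPM in either library.

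The libraries differed in more than the reporter. The 10 highest genes held 31.5% of all TPM in GFP-positive cells and between 5.72% and 9.44% in the other libraries, which lowers every other gene of the GFP-positive library. All 8 markers of mature OSNs were present in every library, so the labelled tissue had its defining cell type. The sum of their TPM was 31138 in GFP-negative cells, 3101 in GFP-positive cells, 32355 among the tdTomato-negative, and 16856 among the tdTomato-positive cells. In these bulk samples, fewer OSNs and less RNA of a gene per OSN cannot be told apart.

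Sequence before the transcription start is shown first for members that hold a letter pattern of the Olf/EBF family, transcription factors of OSNs that were first found at promoters of olfactory signaling genes. The pattern searched was CCCNNGGG, which reads the same on both strands, in windows from 250 bases before to 50 bases after each RefSeq start (build GRCm38.p6). RefSeq windows were found for 9 of the 10 genes, with *Gnal* as the exception, and some genes had several starts. At least 1 start of *Gng13*, *Cnga2*, *Cnga4*, *Cngb1*, *Ano2*, and *Slc24a4* held the pattern, 6 of 9 genes and 6 of 15 starts, compared with 15.4% of 27025 genes and 13.7% of 32851 windows. *Ric8b*, *Adcy3*, and *Pde1c* had no match in these windows. In *Cnga4* the match began 24 bases after the start. The 250 bases before the start are printed in full for *Cnga2*, whose product is the principal subunit of the CNG channel, and for *Slc24a4*, the member whose values departed most from the others. For *Gng13*, *Cngb1*, and *Ano2* the match is shown with 20 bases on each side. Capitals mark the match.
Cnga2, chrX:71991599-71991848, plus strand: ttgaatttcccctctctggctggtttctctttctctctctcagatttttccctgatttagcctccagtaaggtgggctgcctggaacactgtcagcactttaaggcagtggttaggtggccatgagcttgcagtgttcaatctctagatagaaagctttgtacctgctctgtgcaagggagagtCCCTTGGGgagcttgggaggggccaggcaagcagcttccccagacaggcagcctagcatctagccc
Slc24a4, chr12:102128477-102128726, plus strand: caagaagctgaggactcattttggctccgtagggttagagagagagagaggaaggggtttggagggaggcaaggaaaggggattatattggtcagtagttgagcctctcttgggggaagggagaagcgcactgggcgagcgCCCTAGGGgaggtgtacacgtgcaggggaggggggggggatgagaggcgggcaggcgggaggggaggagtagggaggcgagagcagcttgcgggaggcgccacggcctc
Gng13, chr17:25717057-25717105, plus strand: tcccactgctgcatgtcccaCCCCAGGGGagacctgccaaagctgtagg
Cngb1, chr8:95306687-95306734, minus strand: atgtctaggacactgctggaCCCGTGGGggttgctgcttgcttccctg
Ano2, chr6:125711101-125711148, plus strand: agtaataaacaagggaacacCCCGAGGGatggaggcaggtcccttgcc

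The match began 66 bases before the start in *Cnga2*, 109 in *Slc24a4*, 95 in *Gng13*, 129 in *Cngb1*, and 67 in *Ano2*. In *Gng13* a pair of overlapping matches makes a run of 9 letters. The *Ano2* start lies inside the gene as GENCODE M21 annotates it, and the other *Ano2* starts held no match. The homeodomain core TAATTA, searched on both strands, was in no window of the 9 genes and in the windows of 6.12% of all genes. A match describes letters in a window, not a bound site, and *Slc24a4* held one although its values differed from those of the other matched genes.

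The G protein of the cascade had the highest levels of the 10 genes. *Gnal*, which encodes the alpha subunit Golf, was at 1719 TPM in GFP-negative cells, 228 TPM in GFP-positive cells, 1973 TPM among the tdTomato-negative, and 1128 TPM among the tdTomato-positive cells. *Gng13*, which encodes the gamma subunit, was at 2885, 362, 2499, and 1207 TPM in the same order of libraries. Both genes were high in the negative libraries of both lines, intermediate in tdTomato-positive cells, and lowest in GFP-positive cells. The log2 difference of *Gnal* was -2.91 in the GFP line and -0.81 in the tdTomato line, 7.56-fold and 1.75-fold lower. That of *Gng13* was -2.99 and -1.05, 7.96-fold and 2.07-fold lower. *Gng13* was the highest and *Gnal* the next of the cascade genes in all 4 libraries, and in GFP-negative cells they ranked 16 and 35 among all genes. *Gng13* was 1.68 times *Gnal* in GFP-negative cells, 1.59 times in GFP-positive cells, 1.27 times among the tdTomato-negative, and 1.07 times among the tdTomato-positive cells, so this ratio differed more between lines than between sorted groups of a line.

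*Ric8b* encodes the exchange factor and chaperone of the Golf alpha subunit. It was at 622 TPM in GFP-negative cells, 90.7 TPM in GFP-positive cells, 701 TPM among the tdTomato-negative, and 412 TPM among the tdTomato-positive cells. The log2 differences were -2.76 and -0.76, 6.85-fold and 1.70-fold lower, close to those of its partner. *Gnal* was 2.76, 2.51, 2.81, and 2.74 times *Ric8b* in the 4 libraries, a narrow range beside the wide range of both levels.

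*Adcy3* encodes the adenylyl cyclase that makes the cAMP of the odor response. Its level was 872 TPM in GFP-negative cells, 88.3 TPM in GFP-positive cells, 1177 TPM among the tdTomato-negative, and 663 TPM among the tdTomato-positive cells. GFP-positive cells were again lowest, and the gap between the lines was wide for this gene. It was 9.88-fold lower in GFP-positive cells (log2 difference -3.29) and 1.77-fold lower in tdTomato-positive cells (log2 difference -0.83), and the difference of these log2 values, 2.46, was the highest among the 10 genes.

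The CNG channel is built from the products of *Cnga2*, which carries the conducting subunit, and of *Cnga4* and *Cngb1*, which modulate its gating and transport to the cilium. *Cnga2* was at 1091, 146, 1216, and 541 TPM in GFP-negative, GFP-positive, tdTomato-negative, and tdTomato-positive cells. *Cnga4* was at 673, 66.5, 705, and 256 TPM. *Cngb1* was at 205, 21.5, 303, and 172 TPM. All 3 subunit genes kept the order of libraries seen for the G protein. *Cnga4* was lowered most of the 10 genes in both lines, 10.1-fold in GFP-positive cells and 2.75-fold in tdTomato-positive cells (log2 differences -3.32 and -1.46). *Cnga2* was 7.48-fold and 2.25-fold lower (-2.89 and -1.17), and *Cngb1* was 9.52-fold and 1.76-fold lower (-3.19 and -0.81). The log2 differences of the modulatory subunits *Cnga4* and *Cngb1* were thus further apart in the tdTomato line than in the GFP line.

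The subunits did not keep 1 proportion. *Cnga2* made up 55.4%, 62.4%, 54.7%, and 55.9% of the summed TPM of the 3 subunit genes in GFP-negative, GFP-positive, tdTomato-negative, and tdTomato-positive cells. *Cnga4* made up 34.2%, 28.4%, 31.7%, and 26.4%, and was lower in the positive than in the negative cells of each line. *Cngb1* made up 10.4%, 9.19%, 13.6%, and 17.7%, lower in the positive cells of one line and higher in those of the other. These shares do not depend on the scale of a library.

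*Ano2*, the calcium-activated chloride channel of the cilia, was at 375 TPM in GFP-negative cells, 44.5 TPM in GFP-positive cells, 484 TPM among the tdTomato-negative, and 261 TPM among the tdTomato-positive cells. It was 8.41-fold lower in GFP-positive cells and 1.85-fold lower in tdTomato-positive cells, with log2 differences of -3.04 and -0.89. *Pde1c*, a phosphodiesterase activated by calcium and calmodulin that degrades cAMP in the cilia, was at 104, 13.0, 145, and 71.7 TPM. It was 7.96-fold and 2.02-fold lower (log2 differences -2.90 and -1.01). *Ano2* and *Pde1c*, which act at opposite ends of the response, thus lay within the range of the G protein, cyclase, and channel genes in both lines.

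*Slc24a4* encodes the potassium-dependent sodium/calcium exchanger NCKX4, which removes calcium from the cilium after a response. It was at 75.2 TPM in GFP-negative cells, 30.9 TPM in GFP-positive cells, 141 TPM among the tdTomato-negative, and 86.5 TPM among the tdTomato-positive cells. It was lower in the positive cells of each line, but less so than any other member, 2.44-fold in the GFP line and 1.64-fold in the tdTomato line. Its log2 difference of -1.26 in the GFP line lay outside the range of the other 9 genes, from -3.32 to -2.76, whereas its -0.70 in the tdTomato line lay just above theirs, from -1.46 to -0.76. It held 0.872% of the cascade's TPM among GFP-negative and 2.83% among GFP-positive cells, and 1.51% and 1.80% in tdTomato-negative and tdTomato-positive cells. In rank it was the lowest of the 10 genes in both negative libraries, but *Pde1c* was below it in both positive libraries and *Cngb1* also in GFP-positive cells. With 1 library per group, neighbours in this order have no spread between replicates to be compared with.

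**Figure D1:**
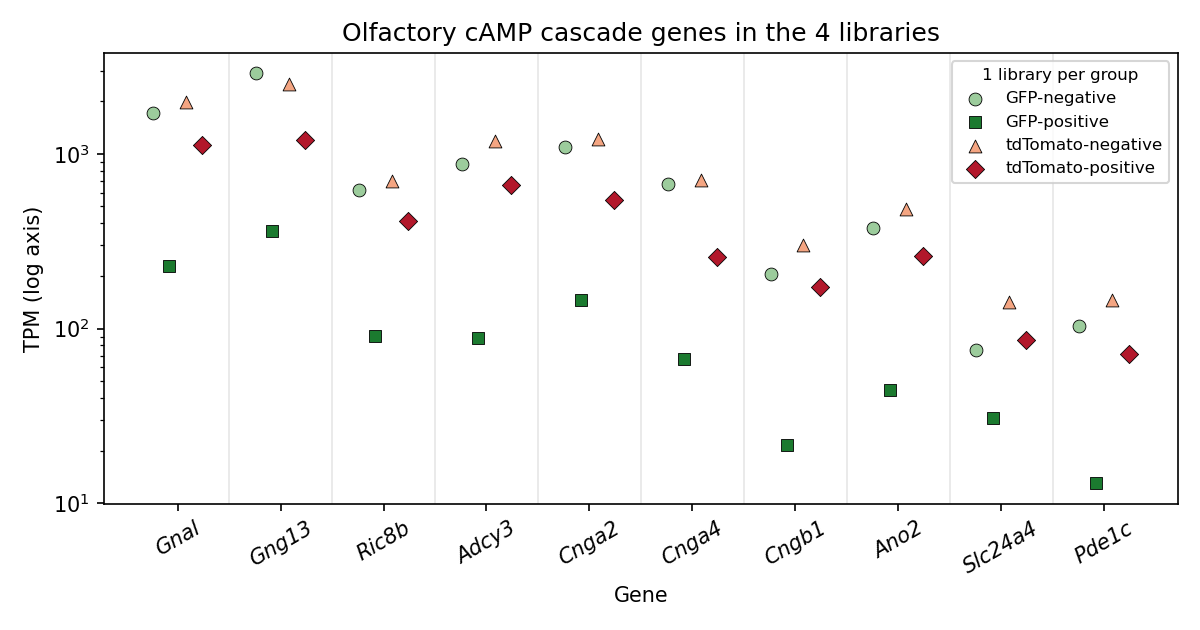
TPM of the 10 cascade genes (log axis) in the 4 libraries, 1 point per library and gene. GFP-positive cells have the lowest point for every gene, and the 4 points of *Slc24a4*, from 30.9 to 141 TPM, lie closest together.

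Across the cascade, summed TPM was 8621 in GFP-negative cells, 1091 in GFP-positive cells, 9343 among the tdTomato-negative, and 4799 among the tdTomato-positive cells, which is 0.862%, 0.109%, 0.934%, and 0.480% of all TPM. All 10 genes were lower in GFP-positive than in GFP-negative cells, as were 75.5% of the 16173 genes compared, and all 10 were at least 2-fold lower, as were 45.0% of these genes. The median log2 difference of the 10 genes was -2.95 and that of all genes was -0.88. In the tdTomato line all 10 genes were lower, as were 60.0% of the 15777 genes compared. Of the 10, *Gng13*, *Cnga2*, *Cnga4*, and *Pde1c* were at least 2-fold lower, compared with 23.2% of all genes, and *Pde1c* and *Gng13* were just past that limit. All 10 were at least 1.5-fold lower, compared with 35.7%. The median log2 difference was -0.86 for the 10 genes and -0.23 for all genes.

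Other scalings of the libraries changed these sizes. Scaling by the median ratio over genes moved the median of all genes up by 0.81 in the GFP line and 0.15 in the tdTomato line, and removing the highest genes moved it up by 0.45 and 0.050. All 10 members were lower in both lines under each scaling. The share of all genes that were lower was 52.4% in the GFP line and 53.9% in the tdTomato line with median-ratio scaling, and 64.8% and 57.9% without the highest genes. With median-ratio scaling the members' median in the GFP line was -2.08, and *Slc24a4* was at -0.39, and without the highest genes it was at -0.77, so that under either scaling it was no longer 2-fold lower and the other 9 members were. The share of all genes at least 2-fold lower in the GFP line was then 21.7% and 29.7%. Under either scaling 2 rather than 4 members were at least 2-fold lower in the tdTomato line, which is near the 19.9% and 22.3% of all genes under these scalings.

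**Figure D2:**
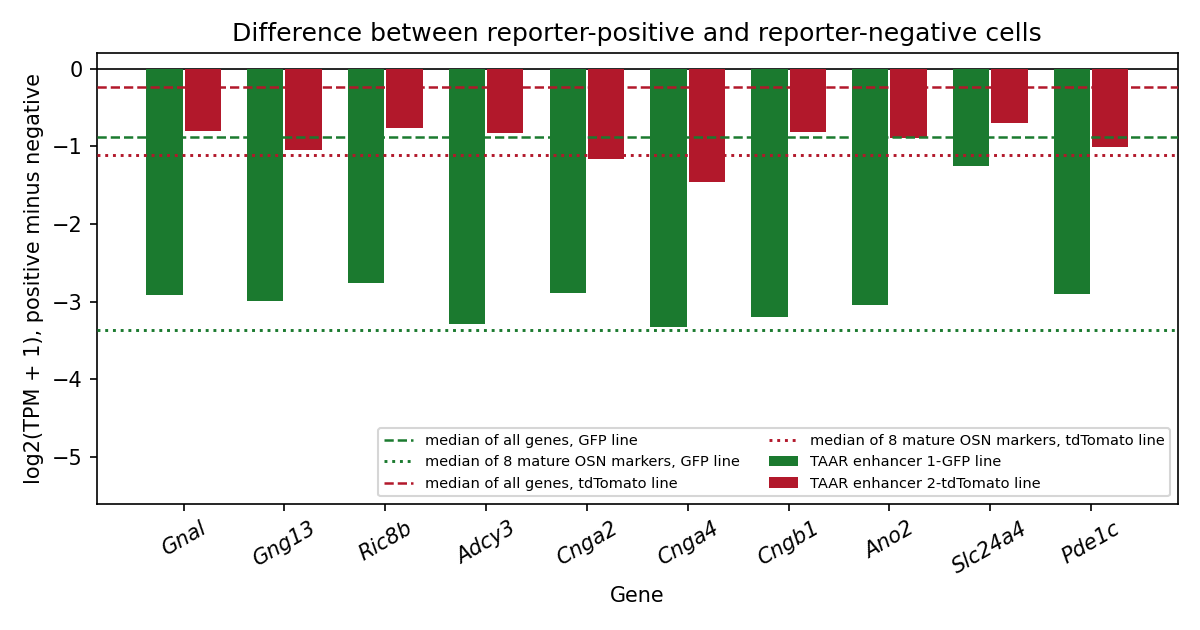
Log2(TPM + 1) difference of each cascade gene, reporter-positive minus reporter-negative, in the TAAR enhancer 1-GFP line (green bars) and the TAAR enhancer 2-tdTomato line (red bars), with the median of all genes (dashed) and of 8 mature OSN markers (dotted) for each line. The GFP line spans -3.32 to -1.26 and the tdTomato line -1.46 to -0.70, and *Slc24a4* is the gene with the smallest gap between the lines.

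The reporter-negative libraries of the lines gave similar values for the cascade. No member was 2-fold apart between tdTomato-negative and GFP-negative cells, compared with 23.8% of 15899 genes, and *Slc24a4*, 1.88-fold higher in tdTomato-negative cells, was the 1 member at least 1.5-fold apart, compared with 39.3%. The median log2 difference, tdTomato-negative minus GFP-negative, was 0.28 for the members and 0.052 for all genes. *Gng13* was the 1 member that was lower in tdTomato-negative cells (log2 difference -0.21). These libraries come from different lines and are not replicates. The shares of all genes include genes from 1 TPM and were not matched to the members' levels, which were at least 75.2 TPM here.

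The reporter-positive libraries were further apart. All 10 genes were at least 2-fold higher in tdTomato-positive than in GFP-positive cells, as were 34.9% of the 15121 genes compared. The median log2 difference, tdTomato-positive minus GFP-positive, was 2.24 for the members and 0.69 for all genes. *Cngb1* was highest at 7.998-fold and *Slc24a4* lowest at 2.80-fold. The gap between the lines' own differences, tdTomato minus GFP, had a median of 1.97 over the members and 0.63 over the 15033 genes compared in both lines, and was 0.55 for *Slc24a4* and between 1.73 and 2.46 for the other members.

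Markers of mature OSNs moved with the cascade. All 8 were lower in both lines, beside 75.5% and 60.0% of all genes, with log2 differences from -4.02 to -2.73 in the GFP line (median -3.37) and from -1.35 to -0.14 in the tdTomato line (median -1.11). The median of the cascade was 0.42 above theirs in the GFP line and 0.25 above in the tdTomato line. *Omp*, the olfactory marker protein of mature OSNs, was at 9584, 1108, 10108, and 4427 TPM in GFP-negative, GFP-positive, tdTomato-negative, and tdTomato-positive cells. The 6 markers of immature OSNs, *Gap43* among them, were also lower, with medians of -2.09 and -0.995.

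Each member was therefore set against *Omp* in the same library, a ratio that a library's scale does not change. *Gnal* was 17.9% and 20.5% of *Omp* in GFP-negative and GFP-positive cells, and 19.5% and 25.5% in tdTomato-negative and tdTomato-positive cells. *Cnga4* was 7.03% and 6.01%, and 6.97% and 5.78%, and was the 1 member lower per *Omp* in the positive cells of both lines. Against the geometric mean of the 8 mature OSN markers the log2 shifts of *Cnga4* were -0.034, near 0, in the GFP line and -0.47 in the tdTomato line. *Adcy3* was 9.10% and 7.97%, and 11.6% and 15.0%, and *Cngb1* was 2.13% and 1.94%, and 2.99% and 3.88%. The lower ratio of both in GFP-positive cells varied with the reference. Against the geometric mean of the 8 mature OSN markers the log2 shifts in the GFP line were near 0, at 0.00061 for *Adcy3* and 0.054 for *Cngb1*. Against the geometric mean of the other members they were -0.47 and -0.41.

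*Slc24a4* again stood apart, at 0.784% of *Omp* in the GFP-negative library and 2.79% in the GFP-positive library, a 3.55-fold higher ratio. In tdTomato-positive cells it was 1.95%, 1.395-fold above its ratio in the negative cells of that line. The median log2 shift of the ratio to *Omp* was 0.12 over the 10 genes in the GFP line and 0.33 in the tdTomato line. Against the geometric mean of the mature OSN markers the order of the lines turned, with medians of 0.31 and 0.13. Against the geometric mean of the other members the medians were -0.12 and 0.10. For the other 9 genes the shift per *Omp* lay between -0.23 and 0.34 in the GFP line, compared with 1.83 for *Slc24a4*. The *Slc24a4* shift in that line was 2.02 against the mature OSN markers and 1.78 against the other members. *Slc24a4* is not restricted to OSNs in the body, and which cells of the GFP-positive library held its transcripts was not tested.

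**Figure D3:**
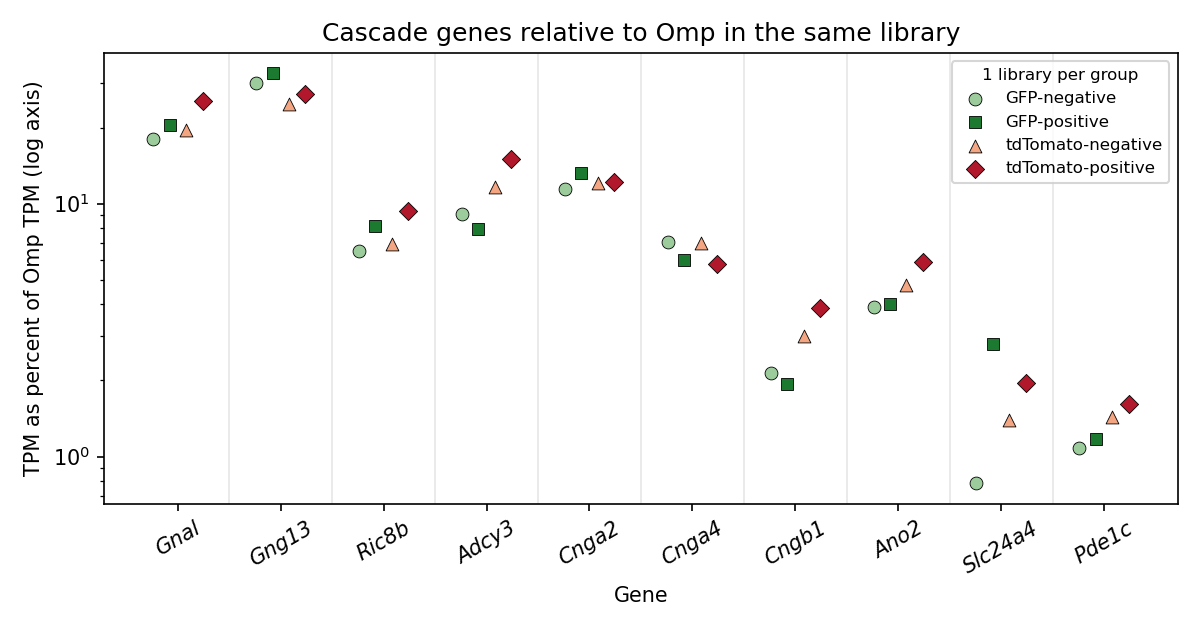
Level of each cascade gene as a percent of *Omp* TPM in the same library (log axis), 1 point per library. The 4 points of the other 9 genes lie closer together than those of *Slc24a4*, which run from 0.784% in GFP-negative cells to 2.79% in GFP-positive cells.

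Other components that act beside the cascade were counted as a list of 15 genes, of which 12 reached 10 TPM in any library. In the GFP line 10 of the 12 were at least 2-fold lower and 1 was at least 2-fold higher, beside 45.0% and 14.2% of all genes, with a median log2 difference of -2.17. In the tdTomato line 3 were lower and 1 was higher, which is near the 23.2% and 17.2% of all genes, with a median of -0.61. *Gnb1*, the G protein beta subunit that pairs with the *Gng13* product, was at 2104, 351, 2199, and 1220.1 TPM in GFP-negative, GFP-positive, tdTomato-negative, and tdTomato-positive cells, and its log2 differences of -2.58 and -0.85 were near those of the cascade. *Pde4a*, a phosphodiesterase of the OSN cell body, was at 276, 32.3, 373, and 239.6 TPM (-3.06 and -0.64). It was 2.67, 2.48, 2.57, and 3.34 times *Pde1c*.

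*Calm2* and *Calm3*, which encode calmodulin, the protein that gives calcium feedback on the CNG channel and the *Pde1c* product, were lowered less than the cascade medians. *Calm2* was at 3606, 1084, 3585, and 2782 TPM in GFP-negative, GFP-positive, tdTomato-negative, and tdTomato-positive cells (log2 differences -1.73 and -0.37), and *Calm3* was at 674, 245, 659, and 593 TPM (-1.46 and -0.15). *Slc12a2*, the cotransporter NKCC1 that loads OSNs with chloride, was at 217, 148, 271, and 232 TPM, and its log2 differences of -0.55 and -0.22 were within 2-fold in both lines. *Calm2*, *Calm3*, and *Slc12a2* are used by many cell types.

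Genes that turn the receptor or the cyclase off did not move as 1 group. *Rgs2*, a regulator of G protein signaling that also inhibits adenylyl cyclase 3, was at 157, 12.4, 113, and 6.26 TPM, lower in both lines by more than any cascade gene (log2 differences -3.56 and -3.98). *Arrb2*, which encodes beta-arrestin 2, was at 201, 25.6, 208, and 52.7 TPM (-2.93 and -1.96). *Grk3*, the receptor kinase listed under its older symbol *Adrbk2*, was higher in the positive cells of each line, at 5.06 and 19.1 TPM in the GFP line and 9.20 and 41.9 TPM in the tdTomato line (1.73 and 2.07). It was the 1 companion gene at least 2-fold higher, with log2 differences above those of every cascade gene. *Rgs2* and *Arrb2* are also expressed in leukocytes. Of 5 leukocyte markers 4 were at least 2-fold lower in the positive cells of each line, beside 45.0% and 23.2% of all genes. *Ptprc* of these was at 178, 3.14, 194, and 1.42 TPM. The remaining marker, *Lyz2*, was higher in both lines, at 1581, 2043, 707, and 1707 TPM. The leukocytes' part in the lower *Rgs2* and *Arrb2* was not tested.

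Among the other calcium removal genes, *Atp2b1* and *Atp2b4*, plasma membrane calcium pumps, had log2 differences of -1.69 and -2.19 in the GFP line and -0.68 and -1.12 in the tdTomato line. *Slc8a1*, a sodium/calcium exchanger that was at most 47.1 TPM in any library, had log2 differences of -2.75 and -0.34. In the GFP line the log2 difference of *Slc24a4*, -1.26, was thus smaller in size than that of these 3 genes, and in the tdTomato line it was close to that of *Atp2b1*.

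Paralogues of the cascade genes went both ways. Of 40 listed family members 39 had values, and 18 reached 10 TPM in any library. *Ric8a*, the paralogue of *Ric8b*, was not analysed here. Of the 18, 8 were at least 2-fold lower, 5 at least 2-fold higher, and 5 within 2-fold in the GFP line, and 5, 4, and 9 in the tdTomato line. The counts of lower genes are near the background of 45.0% and 23.2% of all genes, and 14.2% and 17.2% of all genes were at least 2-fold higher. Their median log2 differences were -0.50 and 0.024. *Gnas*, the widely expressed stimulatory alpha subunit related to *Gnal*, was at 56.3 and 91.2 TPM in the GFP line, negative then positive, and at 55.1 and 90.9 TPM in the tdTomato line (log2 differences 0.69 and 0.71). *Gnal* was 30.5 times *Gnas* in GFP-negative and 2.49 times in GFP-positive cells, and 35.8 and 12.4 times in the tdTomato line.

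*Adcy6*, another adenylyl cyclase, was higher in the positive cells, at 2.63 and 24.7 TPM in the GFP line and 9.94 and 30.8 TPM in the tdTomato line (log2 differences 2.82 and 1.54). *Adcy7*, a cyclase abundant in blood cells, went the other way, at 26.0 and 1.22 TPM in the GFP line and 31.1 and 1.91 TPM in the tdTomato line (-3.61 and -3.46). *Adcy3* was 331 times *Adcy6* in GFP-negative cells and 3.57 times in GFP-positive cells. *Ano1*, the calcium-activated chloride channel of secretory epithelia, was at 3.75 and 57.0 TPM in the GFP line and 7.36 and 18.1 TPM in the tdTomato line (3.61 and 1.19). *Ano2* exceeded *Ano1* 99.8 times in GFP-negative cells, but was 0.782 times *Ano1* in GFP-positive cells, the 1 library in which *Ano1* was the higher. In the tdTomato line *Ano2* was 65.7 times *Ano1* in negative cells and 14.4 times in positive cells.

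Gamma subunit genes moved both ways. *Gng5* was at 67.3, 338, 94.3, and 386 TPM in GFP-negative, GFP-positive, tdTomato-negative, and tdTomato-positive cells and was at least 2-fold higher in the positive cells of both lines (log2 differences 2.31 and 2.02). *Gng8*, a gamma subunit of immature OSNs, was lower (-2.16 and -1.40), as were *Gngt2* (-3.88 and -4.73) and *Gng2* (-1.68 and -4.57). *Gng10* was lower (-1.20 and -0.67) and *Gng12* higher (1.08 and 0.47) by less, and *Gng3* and *Gng4* were within 2-fold in both lines. In GFP-positive cells *Gng5* was therefore close to *Gng13*, which was at 362 TPM.

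*Slc24a2*, which encodes the neuronal exchanger NCKX2, was at 91.2 and 9.15 TPM in the GFP line, negative then positive, and at 119.7 and 109 TPM in the tdTomato line. Its log2 difference in the GFP line, -3.18, was within the range of the other 9 cascade genes, and in the tdTomato line it was -0.14. *Slc24a4* was 0.824 times *Slc24a2* in GFP-negative cells, 3.37 times in GFP-positive cells, 1.18 times among the tdTomato-negative, and 0.795 times among the tdTomato-positive cells. Of other paralogues, *Pde1b* was lower in both lines (-2.38 and -1.66), *Ano8* was lower in the GFP line (-1.34 and -0.18), and *Slc24a3* was higher in both (2.18 and 3.43).

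**Figure D4:**
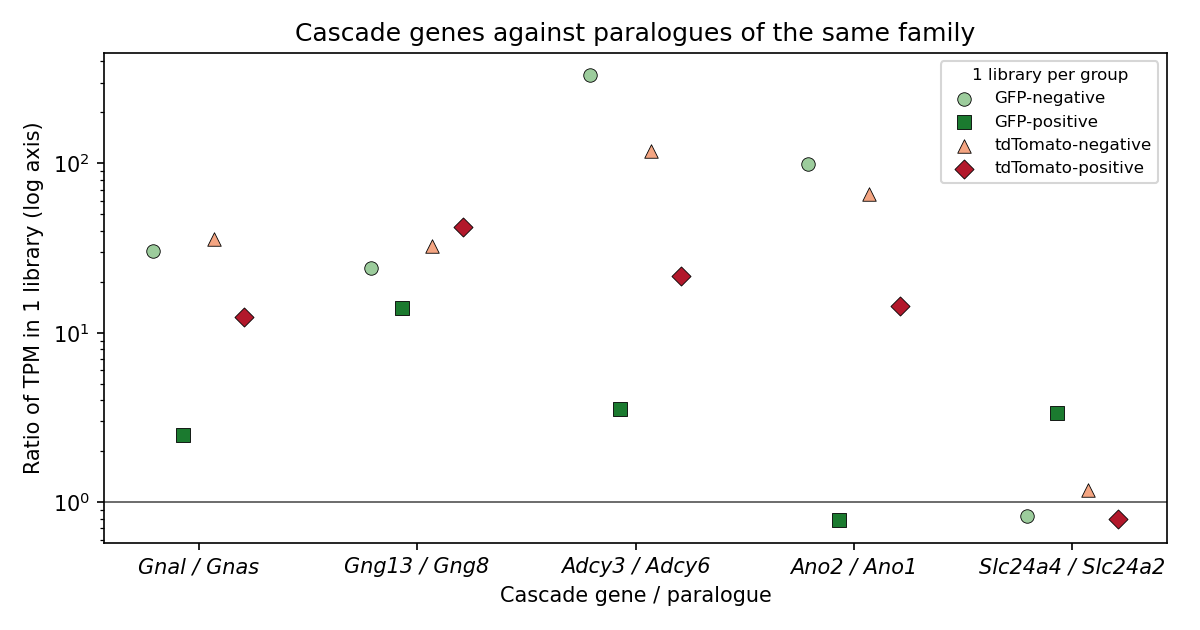
Ratio of TPM of a cascade gene to TPM of a paralogue in the same library (log axis), 1 point per library, with a line at a ratio of 1. *Gnal*/*Gnas*, *Adcy3*/*Adcy6*, and *Ano2*/*Ano1* are lowest in GFP-positive cells, whereas *Slc24a4*/*Slc24a2* is highest there at 3.37. The pairs were chosen after their values were seen.

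Markers of Bowman glands and multiciliated cells were higher in the positive cells of both lines, and sustentacular cell markers in those of the GFP line. Summed TPM of 5 Bowman gland markers, such as *Bpifb9a* and *Bpifb9b*, was 1730 in GFP-negative and 69559 in GFP-positive cells, and 228 and 2037 in tdTomato-negative and tdTomato-positive cells, with all 5 at least 2-fold higher in both lines. At this limit 14.2% of all genes were higher in the GFP line, and 17.2% were higher and 23.2% lower in the tdTomato line. Of 6 sustentacular cell markers, *Cyp2g1* among them, all 6 were at least 2-fold higher in GFP-positive cells, whereas 2 were higher and 2 lower in tdTomato-positive cells, not far from the background, with sums of 891, 8777, 1525, and 7002 TPM. *Cbr2* held most of the sums in the positive libraries, and without it they were 456, 2366, 669, and 675 TPM. *Cyp2g1* was at 199.6, 838, 248, and 84.9 TPM. Of 5 markers of multiciliated cells, such as *Foxj1*, 4 and 5 were at least 2-fold higher in the GFP and tdTomato lines, with sums of 581, 2365, 511, and 7410 TPM. *Ccdc153* of this list was at 0 in GFP-negative cells and *Dmbt1* of the gland list at 0 in tdTomato-negative cells. The part of these cells in the cascade's values, or in those of *Adcy6*, *Ano1*, and *Gng5*, was not tested.

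Markers of further cell types were summed in the same way. The 4 markers of ionocyte-like microvillar cells, *Ascl3* among them, were at least 2-fold higher in the GFP line, with sums of 141, 607, 749, and 606 TPM, and within 2-fold in the tdTomato line. Of 4 horizontal basal cell markers, *Krt5* among them, 3 reached 10 TPM. These 3 were at least 2-fold higher in GFP-positive cells and at least 2-fold lower in tdTomato-positive cells. The remaining marker, below 10 TPM, went the opposite way in both lines. Sums of the list were 37.2, 339, 94.1, and 31.2 TPM. At the 2-fold limit 14.2% of all genes were higher in the GFP line and 23.2% were lower in the tdTomato line. Of 5 globose basal cell and precursor markers, 3 reached 10 TPM, with sums of the list at 101, 36.5, 81.7, and 13.2 TPM. Tuft-type microvillar cells and neurons that use guanylyl cyclase D signal by other routes. Sums for 7 tuft markers were 47.0, 21.8, 94.5, and 16.8 TPM. In the GFP line 2 of the 7 were at least 2-fold lower and 2 higher, beside 45.0% and 14.2% of all genes, and *Trpm5* was within 2-fold. In the tdTomato line 5 were lower, *Trpm5* among them, and 1 was higher, beside 23.2% and 17.2%. Sums for 4 guanylyl cyclase D neuron markers were 172, 41.0, 327, and 42.8 TPM, or 41.7, 4.02, 45.3, and 6.89 TPM without *Car2*. *Gucy2d* itself was at 0.633, 0.107, 11.0, and 0 TPM. The 5 leukocyte markers summed to 3045, 2064, 1913, and 1743 TPM, of which *Lyz2*, the marker that was higher in the positive cells, held 1581, 2043, 707, and 1707 TPM. The other 4 summed to 1464, 21.0, 1207, and 35.9 TPM.

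**Figure D5:**
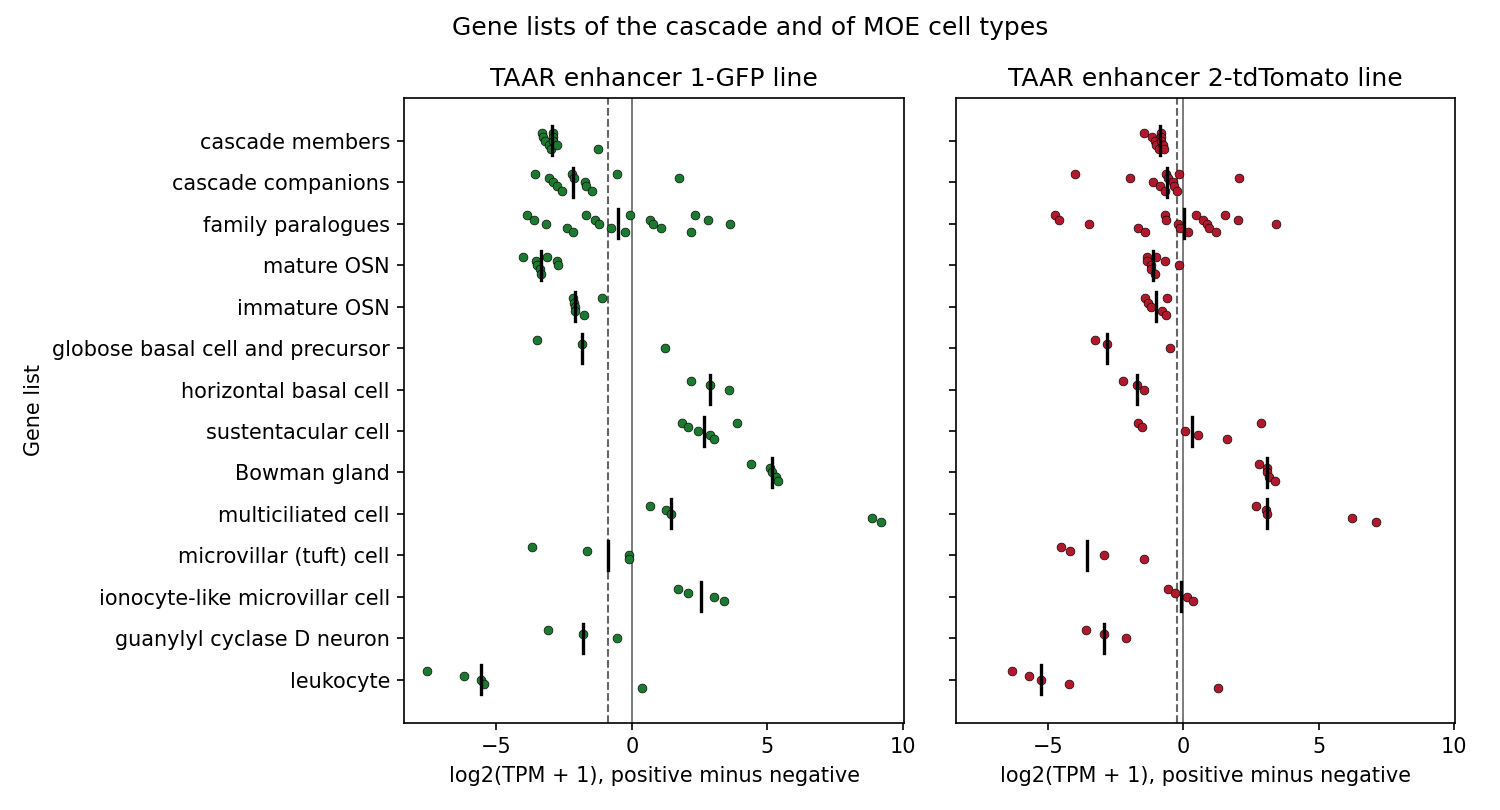
Log2(TPM + 1) differences, reporter-positive minus reporter-negative, of listed genes that reached 10 TPM, by list, for each line. Each point is a gene, black bars are list medians, and the dashed line is the median of all genes. The medians of the cascade and of mature OSN markers lie below the dashed line in both lines, at -2.95 and -3.37 in the GFP line, and that of Bowman gland markers lies above it.

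Outside the cascade, the 5 genes whose pattern over the 4 libraries was most like the members' mean, of 3949 genes with at least 50 TPM in both negative libraries, were *Dlg4*, *Syngr1*, *Apba2*, *Slc45a1*, and *Elavl3*. Likeness was the Euclidean distance between log2(TPM + 1) profiles after each was centred on its own mean, and the distances ran from 0.0854 to 0.119. *Dlg4*, which encodes the synaptic scaffold PSD-95, was at 96.6, 13.0, 120.1, and 66.4 TPM in GFP-negative, GFP-positive, tdTomato-negative, and tdTomato-positive cells. *Elavl3*, a neuronal RNA-binding protein gene, was at 286, 40.6, 350, and 201 TPM. *Gnal* itself was at a distance of 0.11 from the mean to which it contributes, and *Slc24a4* was farthest at 1.15, with 778 of the compared genes nearer.

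Overlapping genes limit the values of 3 members, since the strandedness of the libraries is not stated. In the GENCODE M21 annotation (GRCm38), *Gng13* lies at chr17:25717171-25719406 and shares 51.6% of its exonic bases with *Chtf18* on the opposite strand, which was at 1.87 to 5.66 TPM. *Adcy3* shares 22.1% of its exonic bases with *Cenpo*, at 1.37 to 4.02 TPM, and *Gnal* shares 7.63% with *Mppe1*, at 20.7 to 55.4 TPM. Each partner was below the member in every library, and no exonic overlap was found for the other 7 members.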

How the data were processed

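Gene-level TPM values of 4 RNA-seq libraries were used as deposited by the authors. The submitters' processing notes name Trimmomatic 0.36, Salmon 1.4.0, and mm10, without the role of each tool, while the study's methods name Hisat2 and Cufflinks, so the step that gave the TPM values is not settled. The labels name Vazyme extraction and library kits, whereas the methods name RNeasy and Smart-seq2. Each library sums to 1000000 TPM and depth is unknown, so no intervals or detection limits were calculated, and with 1 library per group no test was made.

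Groups were taken from the sample titles. Differences used log2(TPM + 1), over genes with at least 1 TPM in either library of a comparison. Calculations were tested on simulated data. Named genes were the 10 members, listed companions and paralogues reaching 10 TPM in any library, up to 3 markers per cell type list in list order, and the 5 genes most like the members. The values of 1 listed companion and 1 marker are not reported here. *Dmbt1*, *Cbr2*, *Lyz2*, *Car2*, and the genes overlapping members are named besides. Members and lists were chosen with earlier results of these data known. Alternatives were pseudocounts of 0.1 and 10, a filter of above 0 TPM, a 1.5-fold limit, and median-ratio scaling over 11943 genes. Others were rescaling without 24 genes (the union of each library's 10 highest) and ratios to geometric means of markers or members. Medians without *Slc24a4* were added after the data were seen. Promoter windows are from RefSeq (GRCm38.p6) and gene positions from GENCODE M21 (GRCm38). Calculations were made with pandas 2.3.3 and NumPy 2.4.6 in Python 3.11.15, and plots with matplotlib 3.10.9.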

Additional observations from a re-analysis of the deposited data

Results flagged for a closer look

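Of the paralogues with at least 10 TPM in any library, *Ano6* and *Ano10*, members of the anoctamin family of *Ano2*, differed in opposite directions in the lines. *Ano6*, a phospholipid scramblase, was at 23.3 and 22.1 TPM in GFP-negative and GFP-positive cells and at 21.9 and 41.1 TPM in tdTomato-negative and tdTomato-positive cells, log2 differences of -0.071 and 0.88. *Ano10* was at 35.4 and 20.4 TPM in the GFP line and at 27.8 and 31.7 TPM in the tdTomato line, log2 differences of -0.77 and 0.18. With 1 library per group the difference between the lines was not tested, and no value was 2-fold apart within a line. The median of all genes in the GFP line was itself -0.88 as deposited and -0.071 with median-ratio scaling, a shift of 0.81. In the tdTomato line this shift was 0.15. The gap between the lines' differences was 0.95 for *Ano6* and also for *Ano10*. None of the 10 cascade genes differed in direction between the lines.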

How the results depend on the processing

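Each positive library was compared with the negative library of its line, and with 1 library per group no paired test was possible. The lines, which differ in enhancer, reporter, and founder and may differ in age, were not taken as replicates of each other. Median-ratio scaling moved the median log2 difference of the cascade in the GFP line from -2.95 to -2.08. The number of members at least 2-fold lower in the tdTomato line was 4, and 2 with median-ratio scaling, 2 with rescaling without the highest genes (19.9% and 22.3% of all genes passed under these scalings), and 10 at a 1.5-fold limit. Between the reporter-negative libraries 0 members were 2-fold apart and 1 was 1.5-fold apart. These shifts follow from the scale factors and limits themselves. Of the other 32 recomputed counts and medians, counts moved by no more than 1.5 times and medians by less than 0.585 on the log2 scale. No TPM difference of a member changed sign, but ratios to *Omp*, which were near 0 on the log2 scale, did: the GFP-line median was 0.12 per *Omp* and -0.12 per the other members, and of 20 ratios of single members 5 had the other sign per mature OSN markers and 8 per the other members. Of the recomputed values of single members 109 moved by less than 0.585 on the log2 scale and 11 by more, which were the 10 GFP-line differences under median-ratio scaling and *Pde1c* at -2.30 with a pseudocount of 10 in place of -2.90. Over all genes above 0 TPM in either library, 40.5% and 21.9% were at least 2-fold lower in the GFP and tdTomato lines. Depth is unknown, so the precision of low values cannot be stated.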
